A study of Rattus norvegicus with 4 samples.

Results

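The genes described here are 10 of the cyclic AMP pathway, the CREB-type factors Crem and Creb1 and the phosphodiesterase genes Pde1a, Pde1c, Pde3a, Pde3b, Pde4b, Pde4d, Pde7b and Pde10a. All probe sets annotated to a single gene symbol, that being one of these, were taken, which gave 20 of the 23707 probe sets tested and 10 of the 12922 genes. Cyclic AMP is made by adenylyl cyclases and broken down by phosphodiesterases, and its main effector, protein kinase A, phosphorylates the transcription factor CREB. In vascular smooth muscle a rise in cyclic AMP relaxes the cell and restrains proliferation, and phosphodiesterases of the PDE1, PDE3 and PDE4 families are known to limit it there. Crem, the cyclic AMP responsive element modulator, encodes activators and repressors of the CREB type, among them the inducible early repressor ICER, which is made from an internal start site. Of the 8 phosphodiesterases, those of the PDE4 and PDE7 families act on cyclic AMP alone, while the PDE1, PDE3 and PDE10 enzymes also act on cyclic GMP.

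The cells were rat aortic smooth muscle cells, seeded at a density of 10000 per cm2, kept 24 h in medium with 10% serum and then starved for 72 h of serum and insulin. One group was given PDGF-BB, the BB form of platelet-derived growth factor, known to drive smooth muscle cells to divide and migrate, for 3 h at 30 ng/mL, and the other group the vehicle alone (10 mM acetic acid with 0.2% bovine serum albumin). There were 2 Affymetrix arrays per group, hybridised in a search for early genes of the change in smooth muscle phenotype. The labels do not tell whether both arrays of a pair stem from different cultures, so p-values measure only the spread between these arrays, which may be technical.

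Median intensities were 132 to 148 per array, and the arrays of a pair had a Pearson correlation of 0.995 (vehicle) and 0.993 (PDGF-BB) across probe sets, which are not independent replicates. The smooth muscle markers Acta2, Tagln and Cnn1 were at intensities of 9597 to 11946 on all 4 arrays, and Myh11 at 245 to 462. Of the 8 smooth muscle markers none was higher and 3 were lower, beside 12.4% higher and 15.2% lower over all genes. The 3 were Lmod1 (-1.70 in log2 units), Smtn (-0.79) and Myh11 (-0.70), of which Lmod1 and Smtn are named after their values were seen. Myh11 was called in 1 of 2 probe sets and lost its call under 5 of 13 alternatives, with adjusted p-values by limma of up to 0.148. Background was judged by the brightest of 27 control probe sets for Bacillus genes, at 80.3, although whether such transcripts were added is not stated. In neither group did the mean of any of the 6 endothelial markers measured exceed it, and the same held for 6 of 7 leukocyte markers, 2 of 5 adventitial fibroblast markers and 2 of 6 cardiac and skeletal muscle markers. The summed intensity of the endothelial markers was 69.4 to 76.9 with vehicle and 84.98 to 89.4 with PDGF-BB, that of the leukocyte markers 1563 to 1620 and 1318 to 1432, with Cd14 as the 1 member above background. For the fibroblast list it was 319 to 343 and 265 to 315. For the striated muscle list, led by Acta1 and Myh6, it was 8802 to 8809 and 6734 to 6741. Of the 6 genes on that list 1 was called lower, Acta1 (-0.51 in log2 units), beside 15.2% of all genes. The part of other cell types in the results was not tested. In cultures, more RNA per cell and more cells that express a gene cannot be told apart.

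Sequence around the start sites of the members is shown first. It was searched for letters of the cyclic AMP response element (CRE), the site that CREB-type factors bind. Printed are windows of Crem and Pde10a, picked as the members with the largest changes. Windows of Creb1 and Pde4d hold such letters too and are not printed. Whether the letters bear on any change was not tested. RefSeq windows of the rat build GRCr8, reaching from 250 bases before to 50 bases after a start, were at hand for 8 of the 10 genes, 17 windows in all, numbered here in the direction of transcription. The palindromic CRE, TGACGTCA, was found in 2 of the 17 windows, both of Crem, against 1.83% of all 33469 windows. Its shorter core TGACG, called the CRE core here, on either strand and also inside the palindrome, was in 7 of the 17 windows, against 21.2% of all windows. The bases before the start are printed 5' to 3' on the gene's strand, with the cores and palindromes in capitals.
Crem start 1, chr17:58933816-58934065, plus strand: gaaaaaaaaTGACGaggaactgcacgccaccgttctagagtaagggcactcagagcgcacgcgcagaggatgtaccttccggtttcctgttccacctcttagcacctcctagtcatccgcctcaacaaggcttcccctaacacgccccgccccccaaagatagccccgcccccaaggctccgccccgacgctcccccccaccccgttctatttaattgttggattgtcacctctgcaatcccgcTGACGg
Crem start 2, chr17:58984547-58984796, plus strand: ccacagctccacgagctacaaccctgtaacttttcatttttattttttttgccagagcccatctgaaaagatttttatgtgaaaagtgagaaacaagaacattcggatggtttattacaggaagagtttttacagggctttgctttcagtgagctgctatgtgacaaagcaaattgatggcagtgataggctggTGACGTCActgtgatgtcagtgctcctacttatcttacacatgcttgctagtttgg
Crem start 3, chr17:58985240-58985489, plus strand: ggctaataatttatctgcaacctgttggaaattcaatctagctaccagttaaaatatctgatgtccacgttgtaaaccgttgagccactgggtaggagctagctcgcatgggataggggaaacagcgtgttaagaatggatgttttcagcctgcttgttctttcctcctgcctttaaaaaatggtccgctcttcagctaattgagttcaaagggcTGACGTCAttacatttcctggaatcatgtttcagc
Pde10a start 1, chr1:54765669-54765918, minus strand: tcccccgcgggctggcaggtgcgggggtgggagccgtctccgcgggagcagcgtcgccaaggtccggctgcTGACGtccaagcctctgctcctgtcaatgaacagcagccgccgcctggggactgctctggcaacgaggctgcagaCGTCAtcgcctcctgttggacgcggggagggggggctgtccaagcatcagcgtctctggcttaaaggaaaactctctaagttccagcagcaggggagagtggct

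The first Crem window has 2 cores and no palindrome. At start 2 a palindrome begins 56 bases before the start, and at start 3 one begins 35 bases before the start and another 40 bases after it. At the first Pde10a start, a core begins 179 bases before the start and another, on the other strand, 104 bases before it, while the second Pde10a window has neither. Creb1 has 3 cores at its first start, and Pde4d has them at 2 of its 5 starts. The windows of Pde1a, Pde1c, Pde3a and Pde4b hold no such letters, which says nothing about sites elsewhere. A match is a description of sequence, and the arrays do not tell from which start a transcript came.

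**Figure D1:**
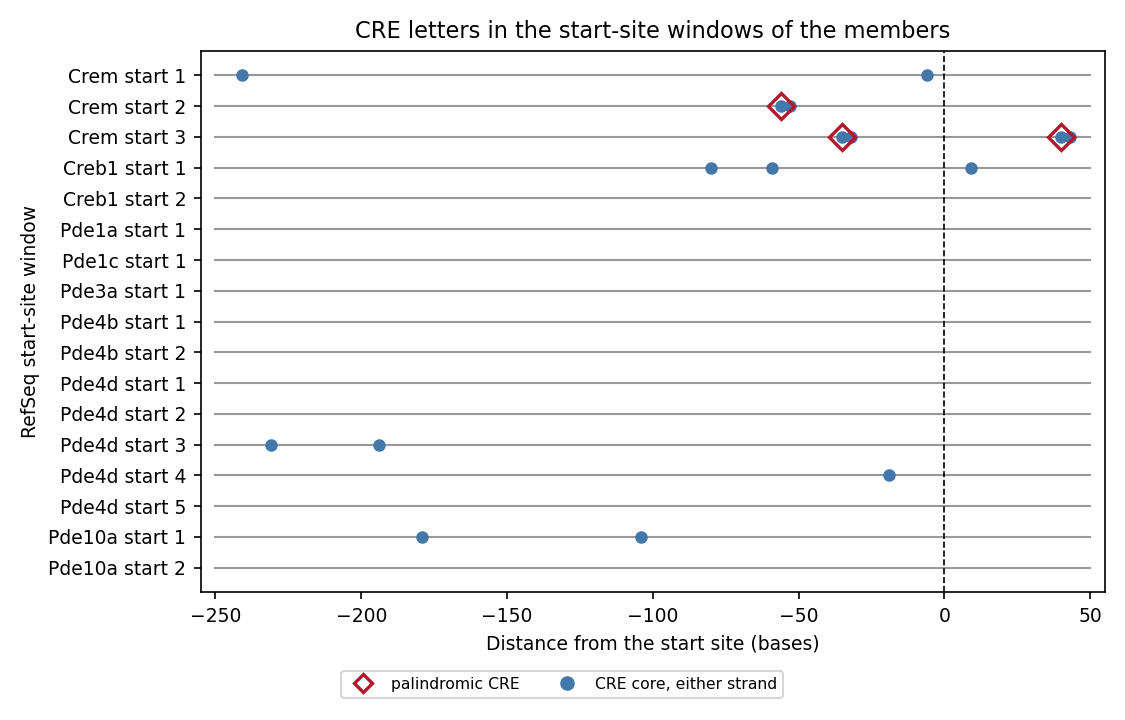
Position of CRE letters in the 17 start-site windows of 8 member genes; the x axis is the distance in bases from the start (dashed line), diamonds mark the first base of a palindromic CRE and dots that of a core on either strand. Palindromes lie at Crem starts 2 and 3, and Pde10a has 2 cores at its first start.

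With PDGF-BB, Crem and 3 phosphodiesterase genes rose, Pde10a, Pde4b and Pde4d, and 1 fell, Pde3b. The other 5 genes, Creb1, Pde1a, Pde1c, Pde3a and Pde7b, did not pass the test. For each gene the probe set with the greatest average log2 value on the 4 arrays was read, and a call is an adjusted p under 0.05 in a limma fit over all probe sets. By that rule 5 of the 10 genes were called, against 27.6% of all 12922 genes, 4 of them higher against 12.4% and 1 lower against 15.2%. At the level of probe sets, 9 of the 20 were higher and 1 lower, against 11.4% and 12.9% of all 23707. The median log2 fold change was 0.26 over the 10 genes and -0.03 over all genes. The groups did not overlap in 16 of the 20 probe sets, against 63% of all, with PDGF-BB above vehicle in 12 (29.2% of all) and below it in 4 (33.8% of all). Over the 10 genes they did not overlap in 8, against 67.5% of all genes, with PDGF-BB above in 5 (29.7% of all) and below in 3 (37.8% of all). Of the 20, 7 had means at or below the background yardstick in both groups.

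**Figure D2:**
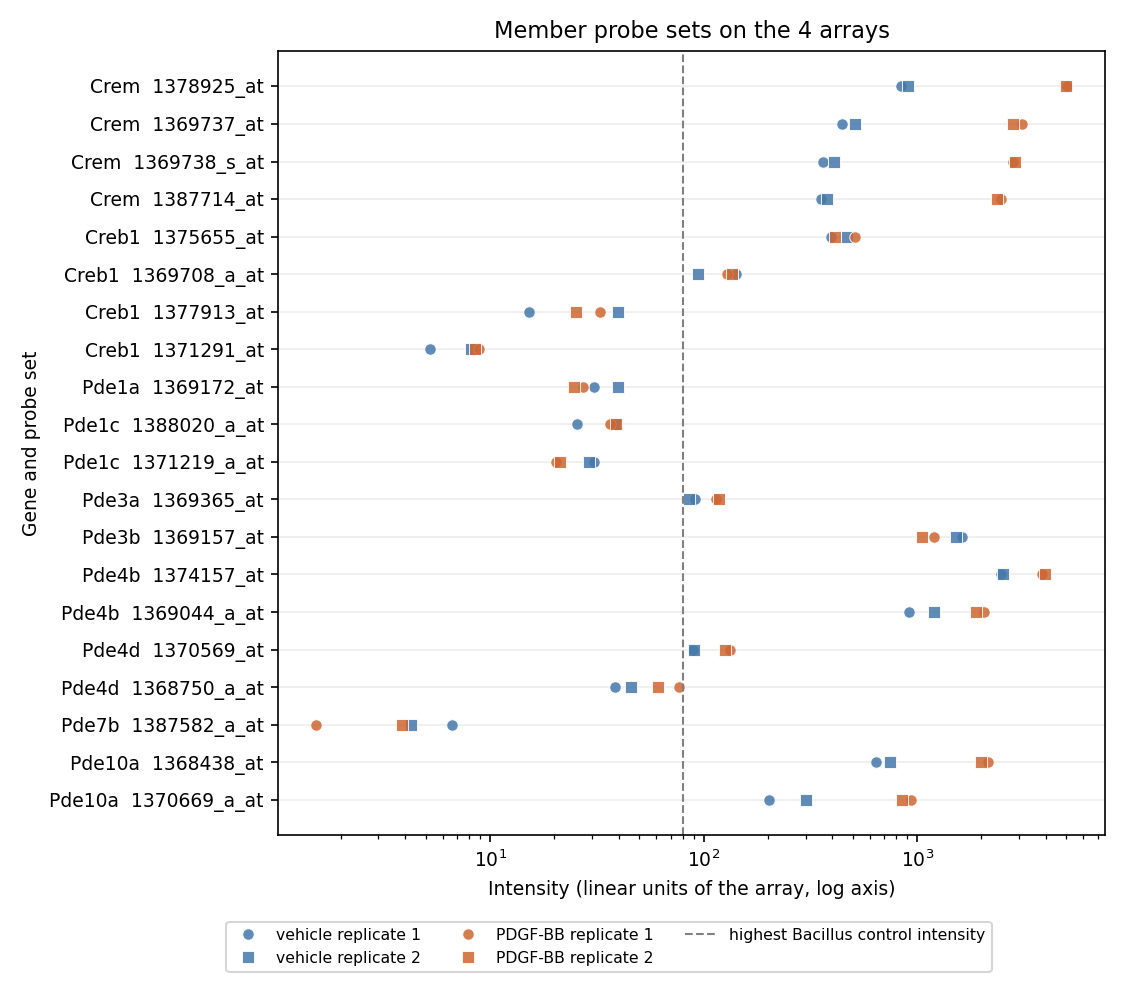
Intensity of the 20 member probe sets on each array, on a log axis; blue marks are vehicle, orange marks PDGF-BB, circles replicate 1 and squares replicate 2, and the dashed line is the background yardstick of 80.3. The groups are far apart in the 4 Crem and 2 Pde10a probe sets and overlap in 3 of the 4 Creb1 probe sets.

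Crem was raised about 6-fold. Its brightest probe set, 1378925_at, read 840 and 911 with vehicle, against 5041 and 4966 after PDGF-BB. The 2 groups did not overlap, and the gap between them was far wider than that within either pair. The means were 876 ± 49.6 and 5003 ± 53.3 (SD, n = 2), a 5.71-fold difference, and the log2 fold change on the log2(intensity + 16) scale was 2.49 (SE 0.09 and, by limma, adjusted p 0.000710). The offset of 16 makes changes of dim genes look smaller than they are. In size this change ranked 134th of the 12922 genes.

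Crem has 3 further probe sets, which gave slightly larger changes. Probe set 1369737_at read 445 and 510 with vehicle, against 3083 and 2806, or 2.59 in log2 units (SE 0.11). For 1387714_at the readings were 353 and 377 against 2466 and 2353, and the log2 fold change was 2.67 (SE 0.09). The probe set 1369738_s_at, whose suffix marks probes shared between transcripts, read 364 and 410 against 2807 and 2869, with a log2 fold change of 2.83 (SE 0.10). The 4 probe sets thus ranged from 2.49 to 2.83, and their 95% confidence intervals, 2.25 to 2.74 for the lowest and 2.56 to 3.10 for the highest, overlap. Limma adjusted p-values of the 3 were 0.000710 to 0.00100. None of the 12 alternative settings run on probe sets ended any of the 4 calls, with adjusted p-values of at most 0.0270. Which Crem transcripts these probe sets read, activators or ICER, was not tested.

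Creb1, the constitutive partner gene whose product is switched on by phosphorylation, did not pass the test. Its brightest probe set, 1375655_at, read 394 and 469 with vehicle and 513 and 411 with PDGF-BB. The readings of the groups overlapped. The log2 fold change was 0.09 (SE 0.16, 95% confidence interval -0.33 to 0.51, limma adjusted p 0.723). Its sign turned when replicate 1 of either group was left out. The probe set 1369708_a_at read 142 and 94.1 with vehicle, against 128 and 136, or 0.17 in log2 units (SE 0.20, 95% confidence interval -0.36 to 0.69), and the groups overlapped here too. The other two, 1377913_at and 1371291_at, were at 5.23 to 39.8, at or below the background yardstick, with log2 fold changes of 0.10 and 0.12 that did not pass. These values concern the transcript and say nothing of the phosphorylated protein.

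Pde10a, a phosphodiesterase that acts on both cyclic nucleotides and is best known from the striatum, rose about 3-fold. Probe set 1368438_at read 642 and 743 with vehicle and 2135 and 1982 with PDGF-BB, with no overlap. The means were 693 ± 71.2 and 2058 ± 108 (SD, n = 2), and the log2 fold change was 1.55, with an SE of 0.11 and an adjusted p of 0.00306 by limma, the 412th largest of the 12922 genes. Its call held in all 13 alternatives, with adjusted p-values of at most 0.0346. Probe set 1370669_a_at read 202 and 302 against 937 and 852, which makes 1.79 in log2 units (SE 0.21 and, by limma, adjusted p 0.00820). Here the vehicle arrays differed from each other more than in the first probe set. The adjusted p of this second probe set was 0.0608 when PDGF-BB replicate 1 was left out and 0.0632 for replicate 2 of that group.

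**Figure D3:**
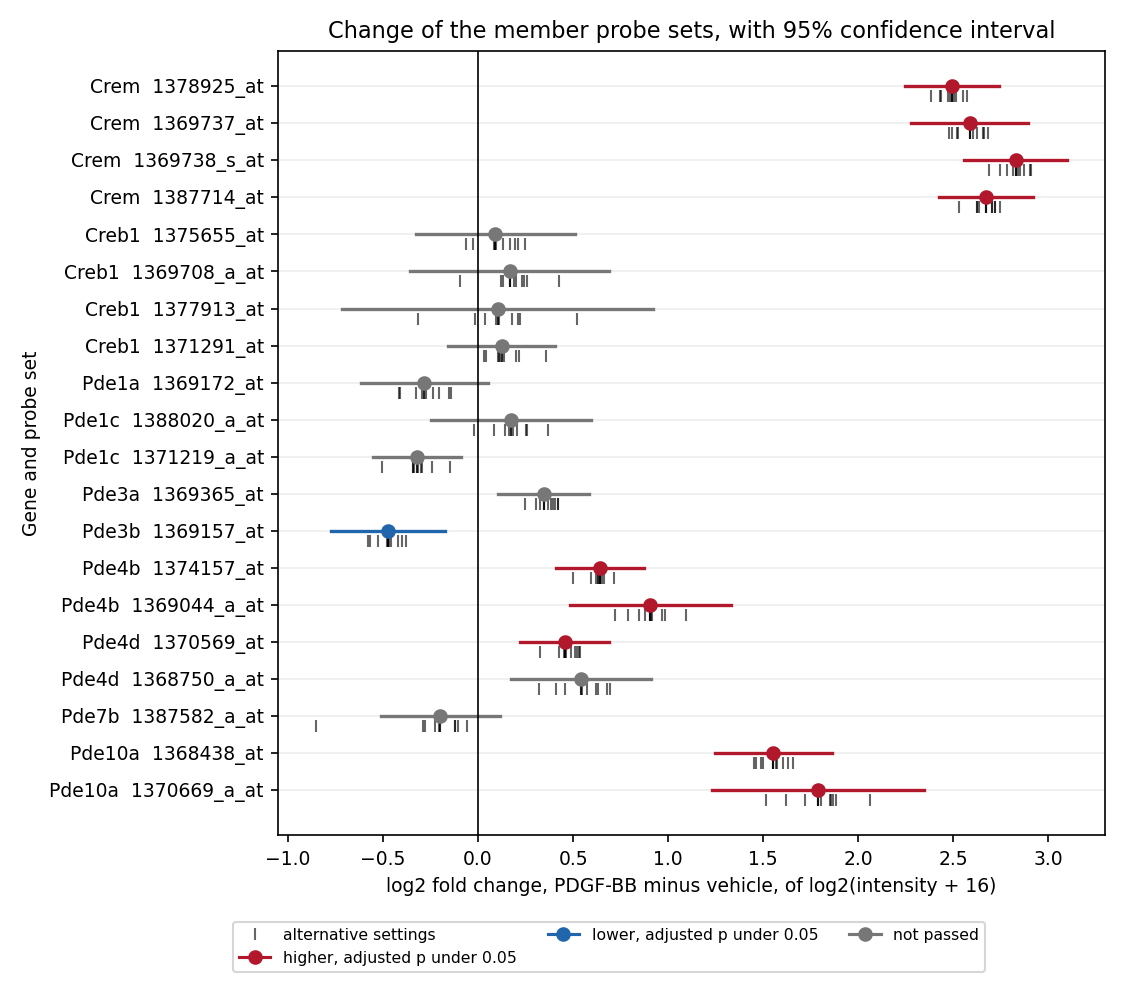
log2 fold change (PDGF-BB minus vehicle, on the log2(intensity + 16) scale) of the 20 member probe sets with 95% confidence intervals from limma; colour gives the call and short black ticks below each point the values under the alternative settings. Crem lies at 2.49 to 2.83 and Pde10a at 1.55 and 1.79, and the remaining values lie between -0.48 and 0.91.

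Pde4b and Pde4d, which encode enzymes that hydrolyse cyclic AMP only and are the targets of rolipram, rose as well. For Pde4b, probe set 1374157_at read 2477 and 2519 with vehicle and 3844 and 3965 with PDGF-BB. Both pairs were tight, and the groups lay apart by much more than either pair's spread. The means were 2498 ± 29.2 and 3904 ± 85.6 (SD, n = 2), a 1.56-fold difference, which makes 0.64 in log2 units (SE 0.09 and, by limma, adjusted p 0.0114). The adjusted p was 0.109 without vehicle replicate 1 and 0.0995 without vehicle replicate 2, fits in which a single vehicle array stands for its group. The second probe set, 1369044_a_at, read 918 and 1195 against 2064 and 1894, which makes 0.91 in log2 units (SE 0.16 and, by limma, adjusted p 0.0214). It too did not overlap between groups, but its adjusted p rose to 0.0952 when vehicle replicate 1 was left out, to 0.0997 or 0.0926 for PDGF-BB replicate 1 or 2, and to 0.0526 for an offset of 1.

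Pde4d was dim. Probe set 1370569_at read 89.5 and 90.3 with vehicle and 132 and 126 with PDGF-BB, just above the background yardstick. The groups did not overlap, and the log2 fold change was 0.46, with an SE of 0.09 and an adjusted p of 0.0272 by limma. This call ended in every fit that left out 1 array, at 0.188 and 0.177 without vehicle replicates 1 and 2 and at 0.0652 and 0.0623 without PDGF-BB replicates 1 and 2. It ended with the replicate number as a block too (0.0651). The second probe set, 1368750_a_at, read 38.6 and 45.6 against 76.7 and 61.0, which makes 0.54 in log2 units (SE 0.14 and, by limma, adjusted p 0.0540). It missed the threshold and passed under 4 other settings (0.0185 to 0.0460). The means of this second probe set were at or below the background yardstick in both groups.

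The 2 genes of the PDE3 family, whose enzymes are inhibited by cyclic GMP, had values of opposite sign. Pde3b read 1628 and 1512 with vehicle and 1202 and 1051 with PDGF-BB on its 1 probe set, 1369157_at. Both PDGF-BB readings lay below both vehicle readings, with means of 1570 ± 81.9 and 1127 ± 107 (SD, n = 2). The log2 fold change was -0.48, with an SE of 0.11 and an adjusted p of 0.0459 by limma, close to the threshold. Leaving out an array ended the call each time, at 0.245 and 0.172 for vehicle replicates 1 and 2 and at 0.0578 and 0.111 for those of PDGF-BB. An offset of 1 (0.0821) and the replicate number as a block (0.0579) ended it too. It was negative in all 13 alternatives, at -0.58 to -0.38.

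Pde3a read 91.1 and 85.5 with vehicle and 115 and 118 with PDGF-BB on probe set 1369365_at. The groups did not overlap, but all 4 values were near background. The log2 fold change was 0.35 (SE 0.09, 95% confidence interval 0.11 to 0.59) and missed the threshold with a limma adjusted p of 0.0567. It passed under 5 of 13 alternatives, with an offset of 64 (0.0423), quantile normalization (0.0347), array medians subtracted (0.0385), cyclic loess (0.0241) and dim probe sets left out (0.0142). The difference between the changes of Pde3a and Pde3b was not tested.

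The calmodulin-activated PDE1 genes and Pde7b were at or below background on all arrays. Pde1a read 30.7 and 39.8 with vehicle and 27.3 and 24.7 with PDGF-BB, which makes -0.28 in log2 units (SE 0.12 and, by limma, adjusted p 0.184). Pde1c, known from proliferating arterial smooth muscle, had 2 probe sets of opposite sign. The first, 1388020_a_at, read 25.6 and 38.5 against 36.5 and 38.9, which makes 0.17 in log2 units (SE 0.16 and, by limma, adjusted p 0.494), with groups that overlapped. The second, 1371219_a_at, read 30.7 and 29.2 against 20.4 and 21.3, which makes -0.32 in log2 units (SE 0.09 and, by limma, adjusted p 0.0636). It passed with an offset of 1 (0.0469), quantile normalization (0.0244) and cyclic loess (0.0338). Pde7b, a cyclic AMP-specific enzyme, read 6.62 and 4.28 against 1.53 and 3.88. Its log2 fold change was -0.20, with an SE of 0.12 and an adjusted p of 0.298 by limma. At such intensities the readings do not show whether these 3 genes were expressed or changed.

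The genes whose readings over the 4 arrays lay nearest to those of Crem's brightest probe set, by Euclidean distance on the log2(intensity + 16) scale, were Akap12, Egr1 and Plin2. Their distances were 0.13, 0.19 and 0.20. Akap12, a scaffold that anchors protein kinase A, read 849 and 838 with vehicle and 5240 and 4950 with PDGF-BB, which makes 2.57 in log2 units (SE 0.09 and, by limma, adjusted p 0.000710). Egr1, an immediate early zinc-finger factor, had a log2 fold change of 2.34, and Plin2, a lipid droplet protein, one of 2.31. With 2 conditions the likeness covers level and change only.

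The rest of the cyclic AMP pathway was described through 6 lists of 111 genes, of which 100 were measured. Of these, 27 were called higher (12.4% of all genes were) and 6 lower (15.2% of all genes), with a median log2 fold change of 0.10 beside -0.03 over all genes. The list of target genes held 16 of the 27. The lists were made with earlier results of these arrays known, so the pooled counts are no independent evidence on the pathway. Leaving out 1 array gave 17 to 22 higher and 3 to 7 lower.

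Among 11 other phosphodiesterase genes, 1 was higher, Pde8a, and 10 did not pass. Over all genes, 12.4% were higher and 15.2% lower. The median was 0.09, beside -0.03 over all genes. Pde8a, a cyclic AMP-specific enzyme of high affinity, read 596 and 603 with vehicle and 1028 and 992 with PDGF-BB. The log2 fold change was 0.74, with an SE of 0.09 and an adjusted p of 0.00822 by limma, and its second probe set was called higher too. Its adjusted p was 0.0867 and 0.0808 without vehicle replicate 1 or 2. Pde7a, a relative of Pde7b, read 715 and 774 against 930 and 920, which makes 0.31 in log2 units (SE 0.09 and, by limma, adjusted p 0.0805), and passed under 5 of 13 alternatives (0.0246 to 0.0451). Pde4a and Pde6g had log2 fold changes of -0.38 and 0.23 and did not pass. In 6 of the 11 both group means were at or below background.

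The list of adenylyl cyclases and G protein alpha subunits showed no call. Adcy1, Adcy7, Adcy9 and Gnai3 of this list were not measured. Of the 12 genes measured none passed the limma threshold, beside 27.6% of all genes, and 1 (Adcy5) had an unadjusted p under 0.05. The median log2 fold change was 0.01. In 4 of the 12, Adcy4 among them, both group means were at or below background. Gnas, which encodes the stimulatory alpha subunit, was not among the 4 with the smallest p and is named after its values were seen: it read 8988 and 8793 with vehicle and 9114 and 8897 with PDGF-BB. Adcy5 came nearest to a call, at 259 and 235 against 190 and 168, which makes -0.43 in log2 units (SE 0.11 and, by limma, adjusted p 0.0542), and passed with an offset of 64 (0.0248), with dim probe sets left out (0.00973) and with an intensity trend in the variance (0.0473), but was at -0.05 as the mean of its 2 probe sets. Gnai2 (-0.13), Gnao1 (-0.23) and Adcy4 (0.12) followed, of which Gnai2 passed after quantile normalization (0.0405).

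Among 16 receptors coupled to the stimulatory G protein and their accessory proteins, 3 were higher and 1 lower, beside 12.4% and 15.2% of all genes, and 11 were at or below background in both groups. Ramp3, which turns the receptor Calcrl into an adrenomedullin receptor, read 148 and 145 with vehicle and 777 and 672 with PDGF-BB, which makes 2.18 in log2 units (SE 0.11 and, by limma, adjusted p 0.00131). Ramp2, with the same role, rose by 0.88 (SE 0.12) and Adora2b, an adenosine receptor, by 0.71 (SE 0.12) from a vehicle mean of 59.0. Pth1r, the parathyroid hormone receptor, read 523 and 460 against 191 and 215 and fell by 1.21 on the log2 scale (SE 0.12 and, by limma, adjusted p 0.00546), in 1 of 2 probe sets, and by 0.61 as their mean. Adjusted p-values without vehicle replicate 1 were 0.0896 for Ramp2, 0.0942 for Adora2b and 0.0508 for Pth1r, and without vehicle replicate 2 0.0744 for Ramp2 and 0.131 for Adora2b. Adora2b also missed the threshold without PDGF-BB replicate 1 (0.0672) or 2 (0.0546). Calcrl itself, named after its values were seen, was at 31.8 to 40.3 on the 4 arrays, below background.

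Of 24 genes for protein kinase A, Epac and anchoring proteins, 5 were higher, 4 lower and 15 not called, beside 12.4% higher and 15.2% lower over all genes, and the median was -0.04. Beside Akap12, Akap13, another anchoring protein, read 643 and 657 with vehicle and 2107 and 1839 with PDGF-BB, which makes 1.58 in log2 units (SE 0.11 and, by limma, adjusted p 0.00257), in 2 of 3 probe sets. Popdc2 and Popdc3, membrane proteins that bind cyclic AMP, fell by 2.06 (SE 0.12) and 1.34 (SE 0.09). Popdc2 went from 1706 and 1838 to 451 and 379 and Popdc3 from 214 and 209 to 75.0 and 73.2. Both Popdc3 readings with PDGF-BB were below background, so the size of its fall is uncertain. The other 5 called genes are named after their values were seen. Akap5, which holds protein kinase A at the plasma membrane, fell by 2.36 (SE 0.16), from 633 and 819 to 139 and 118, and Akap7 fell by 0.94 (SE 0.09). Prkar2a, a regulatory subunit of the kinase, rose by 0.83 (SE 0.08) and Prkacb, a catalytic subunit, by 0.43 (SE 0.09), while the inhibitor gene Pkib rose by 1.11 (SE 0.15) between means of 9.65 and 39.6, both below background. The calls of Akap12, Akap13, Akap5, Popdc2 and Popdc3 held in all 13 alternatives, and those of Prkar2a, Prkacb, Pkib and Akap7 did not.

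Of 14 CREB family factors and coactivators, 2 were higher, 1 was lower and 11 did not pass, beside 12.4% higher and 15.2% lower over all genes, with a median of 0.12. Sik2, a kinase that keeps CREB coactivators out of the nucleus, read 637 and 607 with vehicle and 2490 and 2228 with PDGF-BB, which makes 1.90 in log2 units (SE 0.10 and, by limma, adjusted p 0.00155). Atf1, the closest relative of Creb1 and Crem, read 1576 and 1691 against 2602 and 2441, which makes 0.62 in log2 units (SE 0.10 and, by limma, adjusted p 0.0160). Ep300, an acetyltransferase recruited by CREB, fell by 0.54 (SE 0.11 and, by limma, adjusted p 0.0291), in 1 of 2 probe sets, and was at -0.22 as their mean. Creb5 missed the threshold at 0.45 (SE 0.11 and, by limma, adjusted p 0.0534) in its brightest probe set. The gene passed under 6 alternatives (0.00907 to 0.0332), 1 of them the mean of its 4 probe sets (0.0332). Of the 4 probe sets, 2 were called higher. Atf1 missed the threshold in each fit without 1 array, at 0.131 and 0.0987 without vehicle replicates 1 and 2 and at 0.0566 and 0.0546 without PDGF-BB replicates 1 and 2. Ep300 missed it when vehicle replicate 1 (0.157) or 2 (0.175) or the second PDGF-BB array (0.0731) was left out, with an offset of 1 (0.0585) and as the mean of its probe sets (0.244).

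Genes known as targets of cyclic AMP and CREB were called more often than not. Of 23, 16 were higher, beside 12.4% of all genes, and the remaining 7 were not called. The median was 1.20 in log2 units, beside -0.03 over all genes. Many of the 23 are also immediate early genes that growth factors induce by other routes. The list was also made with earlier results of these arrays known. For both reasons the direction of these genes is no independent evidence on cyclic AMP. The 4 with the smallest p were Nr4a3 (5.26), Rgs2 (4.93), Inhba (3.86) and Junb (3.48), with limma adjusted p-values of 0.000433, and Nr4a3 was at 2.68 as the mean of its 2 probe sets. All 7 that did not pass, Per1, Ppargc1a, Pck1, Sst, Dio2, Cga and Star, named after their values were seen, were at or below background in both groups. Crh, counted among the 16, was also below background in both groups. Fos, Fosb, Sik1 and Areg of the 16, named after their values were seen, had vehicle means below background, at 50.3, 36.5, 28.1 and 42.6. With PDGF-BB the mean of Areg was 83.9, just above it. The calls of Crh, Bdnf and Areg were lost under some alternatives. Nr4a3, Fos and Sik1 were called in 1 of 2 probe sets. Of these, all but Nr4a3 are named after their values were seen.

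**Figure D4:**
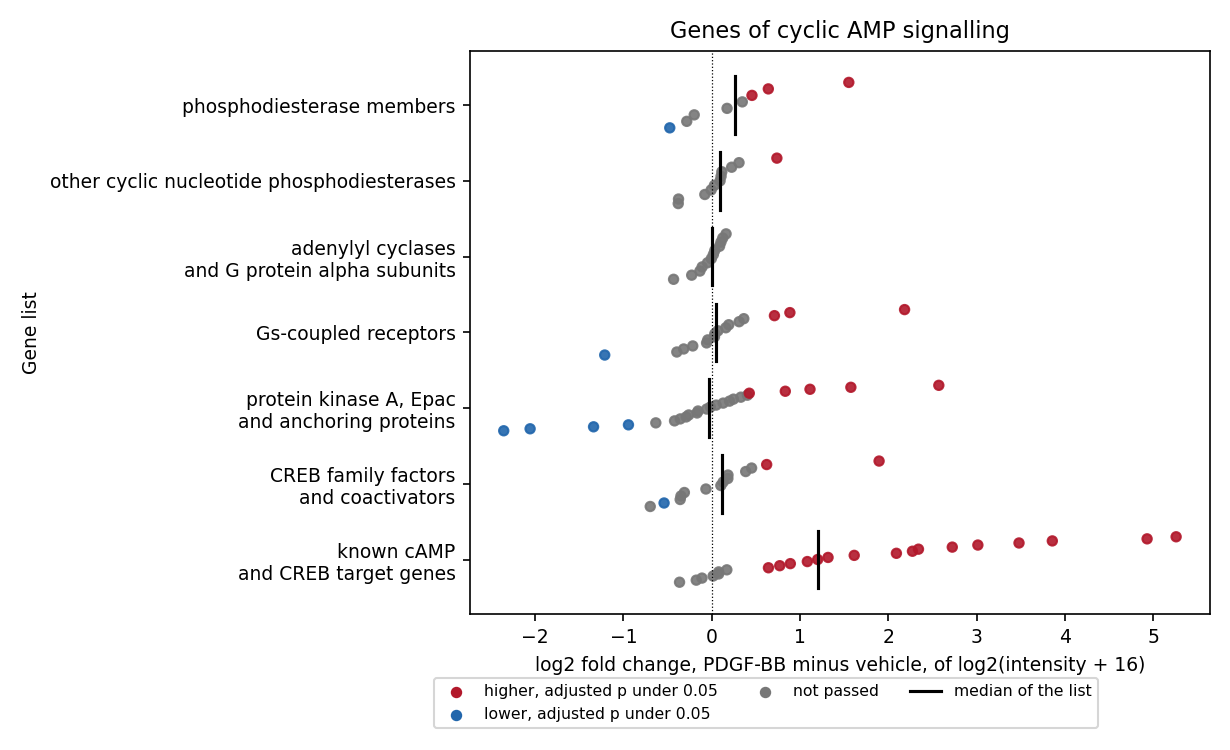
log2 fold change (PDGF-BB minus vehicle, on the log2(intensity + 16) scale) of the 8 phosphodiesterase members and of the genes in 6 cyclic AMP pathway lists; each dot is a gene, colour gives the call and the vertical bar the median of the list. Adenylyl cyclases and G protein subunits lie between -0.43 and 0.16, and 16 of 23 listed target genes were called higher.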

How the data were processed

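The authors deposited 1 table of probe set intensities on a linear scale for 4 Affymetrix arrays, 2 of PDGF-BB and 2 of vehicle; the labels name no software, background correction or scaling between arrays. Sample titles gave group and replicate number. After removal of 57 control probe sets, 23707 remained. Their log2(intensity + 16), not rescaled, was fitted with limma 3.58.1 (lmFit, eBayes) under R 4.3.3, and two-sided p-values were adjusted by Benjamini-Hochberg over all of them. An exact permutation test of 2 against 2 arrays cannot go below 0.333 and was not used. A platform annotation gave 1 symbol for 17279 probe sets. The code of the fit was tried on simulated data with independent noise, which does not check the calls on these arrays.

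The members, the lists and the rule for named genes (all members, the 4 smallest p of each list, the 3 genes nearest to Crem, 4 smooth muscle markers) were chosen with earlier results of these data known. Alternatives were offsets of 1 and 64, quantile, median and cyclic loess scaling, dim probe sets left out, an intensity trend, the replicate number as a block, each array left out, and a gene's probe sets averaged. Motifs were searched as exact strings.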

Additional observations from a re-analysis of the deposited data

How the results depend on the processing

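Crem (all 4 probe sets) and the brightest probe set of Pde10a kept their direction and their call under every alternative run. The remaining calls among the members were lost under some, as given with each gene. The count of member genes called higher, 4, was 3 to 5 under the alternatives with all arrays and 2 to 3 when 1 array was left out; that of probe sets called higher, 9, was 6 to 7 when 1 array was left out. The 1 lower gene, Pde3b, was not called with an offset of 1 (0 genes), with the replicate block (0 genes, 0 probe sets) or when any 1 array was left out (0 to 0). The count of lower member probe sets was 2 after quantile normalization and 2 after cyclic loess, through Pde1c. Lower calls over all genes, 1969 in the main fit, also became more numerous under several settings. They were 2570 with an offset of 64, 2872 after quantile normalization, 2646 with dim probe sets left out and 2627 with an intensity trend. The pathway counts that follow are to be read beside these. Over the pathway lists, the higher calls were 17 to 22 and the lower calls 3 to 7 when 1 array was left out, and the lower calls, 6 with all arrays, were 12 with an offset of 64, 11 after quantile normalization, 12 with dim probe sets left out and 12 with an intensity trend.

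Same-numbered arrays of the 2 groups had deviations with a correlation of -0.0978, so the numbers were not taken to pair the arrays. With the replicate block, 3 member genes were higher and 26 pathway genes higher and 7 lower. Among the members and the genes named by rule, the signs that turned belonged to values that did not pass: Pde1c as the mean of its probe sets (-0.073), Tagln after quantile normalization (-0.028) and cyclic loess (-0.11), and, when 1 array was left out, Creb1 (-0.062 to 0.25; 1369708_a_at -0.095 to 0.43; 1377913_at -0.31 to 0.52), Pde1c (-0.022 to 0.37) and Tagln (-0.0081 to 0.056). Over all genes, 1601 were higher and 1969 lower, and 488 to 1057 and 298 to 1626 when 1 array was left out. The balance moved with the scaling, to 1899 higher and 2872 lower after quantile normalization, 2232 and 2008 with array medians subtracted, and 2119 and 2240 after cyclic loess. Gnas, outside the rule, ranged from -0.10 to 0.17 over the alternatives. A fit without 1 array leaves 1 group with a lone array, assumed to vary like those of the other group. The cause of the lost calls was not tested. Where both groups are near background, the readings limit what can be seen. No rule for closer inspection was applied, since groups of 2 arrays allow no check for outliers.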
